A study of Miniopterus schreibersii with 14 samples.

Results

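The 60 assembled transcript components described here had lower scores throughout the developing wing region of the bent-wing bat, Miniopterus schreibersii, than on the thumb side of the hand and in the foot at stages S15-17. They were selected on the scores of 6 libraries of that period: forelimb digits II-V (FD) and the interdigital tissue between them (FF), which form the wing region; forelimb digit I (FI) and the tissue joining digits I and II (FW), which form the thumb side; and hindlimb digits I-V (HD) with hindlimb interdigital tissue (HW), in the foot. A score is a normalized read count rounded to a whole number, and a component is a stretch of transcript assembled from the reads. Of 64618 components in the table, 12720 averaged 50 or more over these 6 libraries. Each was ranked by the smallest of 4 log2(score + 1) differences, digit I and hindlimb digits over digits II-V and interdigital tissue I-II and hindlimb interdigital tissue over interdigital tissue II-V, so that a positive value means lower in the wing region. The 60 highest were taken after 4 named components had been set aside, 3 of which ranked above the last member. The other 8 libraries played no part in the choice. They are the anterior, middle and posterior parts of forelimb buds (FA, FM, FP) and of hindlimb buds (HA, HM, HP) at stage S14, and fetal metacarpals II-V (FL) and metatarsals I-V (HS). The labels give no strain, treatment, age in days or sex, and do not say how many embryos entered a library.

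In the bat hand, digits II-V lengthen greatly and the tissue between them is kept as the wing membrane, whereas digit I stays short and free. The foot keeps short, separate digits, and the tissue between them regresses by cell death during autopod development, as it does between mouse digits. In the limb bud the anterior edge gives rise to the thumb side and the posterior edge to the little-finger side, and a signalling centre in the posterior mesenchyme, known from mouse and chick, patterns the digits along this axis. The table names components by assembly number only, and 0 of the identifiers matched the 22775 genes of the reference list, so no member could be given a gene name or a role. For the same reason a dissected part could not be checked against marker genes.

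Each part had 1 library, holding 4550754 to 7648427 reads as recovered from the scores. In a library, 1 read was worth a score of 1.29 to 2.23. All 60 members passed the filter on low scores used for testing. The members' median score was 87 in digits II-V and 64 in interdigital tissue II-V, against 213.5 in digit I, 174 in interdigital tissue I-II, 168 in hindlimb digits and 172.5 in hindlimb interdigital tissue. Of the 60, 25 rested on fewer than 30 reads in at least 1 of the 2 wing libraries, and the lowest had 1 read in interdigital tissue II-V. Scores are not corrected for transcript length, so levels are compared between libraries and not between components. In whole dissected parts, a lower score can mean fewer cells with the transcript or less of it per cell, and these cannot be told apart.

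At S15-17, where the values chose the members and carry no test, the ranking value ran from 0.635 to 1.60 with a median of 0.81 on the log2 scale. It exceeded 1, a difference of at least 2-fold in each of the 4 contrasts, for 16 members. The highest value belonged to comp23942_c0, which scored 26 and 17 in wing digits and wing interdigital tissue, against 83 and 81 in thumb-side parts and 81 and 73 in the foot. The next, comp10782_c1, scored 42 and 33 in the wing region, 280 and 166 in thumb-side parts and 123 and 150 in the foot. In both, the thumb side and the foot lay above the wing region in each tissue. Their wing scores rested on few reads, 15 and 10 for comp23942_c0 and 24 and 20 for comp10782_c1. At the edge of the list, the last member scored 1454 in digits II-V and 1222 in interdigital tissue II-V, against 2519 and 1898 in thumb-side parts and 3279 and 2360 in the foot. The first component outside it scored 332 and 363 in the wing region, 536 and 572 in thumb-side parts and 516 and 652 in the foot. The difference that set the rank was hindlimb digits over digits II-V for 24 members, digit I over digits II-V for 15, interdigital tissue I-II over II-V for 15 and hindlimb over wing interdigital tissue for 6.

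**Figure D1:**
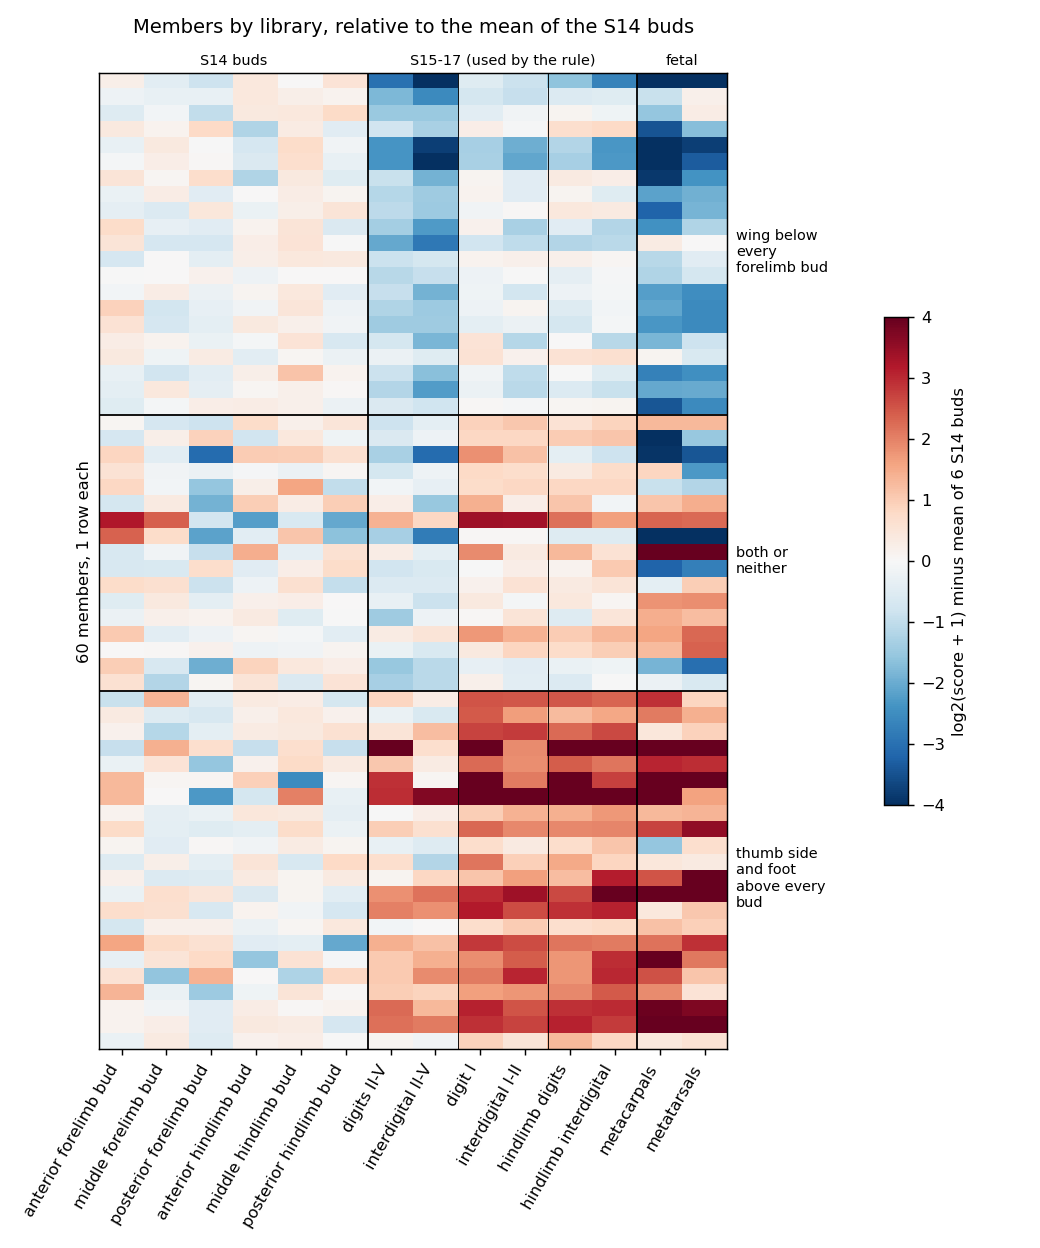
Heat map of the 60 members (rows) in the 14 libraries (columns), as log2(score + 1) minus each member's mean over the 6 S14 buds, with colours ending at -4 and 4. Rows are grouped by where the S15-17 values lie relative to the buds. The wing columns at S15-17 are the bluer ones in the upper block of 21 members and the paler ones in the lower block of 22.

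The S14 buds, the earlier stage, give a level to set the S15-17 scores against. In 22 of the 60, both wing libraries scored below every forelimb bud, against 31.9% of the 12720 components with the same minimum mean, so this count is near the background. In 23, all 4 thumb-side and foot libraries scored above every bud of both limbs, against 9.75% of the same components. Both criteria were met by 1 member, against 0.0236% of the 12720 components. The first alone (the low wing) was met by 21, against 31.8%, which is near the background. The second alone (the high thumb side and foot) was met by 22, against 9.72%, and neither by 16, against 58.4%. A member that missed a criterion may still have had some of its libraries past the buds. As the S15-17 values chose the members, these counts are a description.

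The members with a low wing were led by comp5985_c0 and comp1103_c0. Component comp5985_c0 scored 70 in wing digits and 18 in wing interdigital tissue, 145 and 84 in thumb-side parts and 142 and 72 in the foot, against 339, 428 and 370 in anterior, middle and posterior forelimb buds and 243, 571 and 290 in hindlimb buds. All later parts were below all buds, and the wing was lowest in each tissue. Component comp1103_c0 scored 294 and 43 in the wing region, 1641 and 1276 in thumb-side parts and 757 and 362 in the foot, against 2705, 1732 and 1306 in anterior, middle and posterior forelimb buds. The thumb side was thus below the anterior bud and between the middle and posterior buds or just under them, while the wing region lay far below all 3. Over the 21 members of this kind, the median log2 change from the buds of the same limb was -1.33 in the wing region, -0.33 in thumb-side parts and -0.48 in the foot.

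The members with a high thumb side and foot were led by comp4604_c0 and comp5067_c0. Component comp4604_c0 scored 87 and 79 in wing digits and wing interdigital tissue, 145 and 124 in thumb-side parts and 161 and 131 in the foot, against 13 to 22 in forelimb buds and 11 to 24 in hindlimb buds. Component comp5067_c0 scored 732 and 373 in the wing region, 1273 and 860 in thumb-side parts and 1155 and 1184 in the foot, against 109 to 165 and 154 to 184 in the buds. In both, the wing scores lay above the buds as well, but less far than the other parts did. Over the 22 members of this kind, the median log2 change was 0.96 in the wing region, 2.39 in thumb-side parts and 2.24 in the foot. Both wing libraries were above every forelimb bud in 7 members, all of them of this kind, against 21.2% of the 12720 components. The rule puts thumb side and foot above the wing in each tissue, so in these members both exceed every forelimb bud. Only the hindlimb buds could have placed them elsewhere. Over all 12720 components the 3 medians were -0.08, -0.07 and -0.08.

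**Figure D2:**
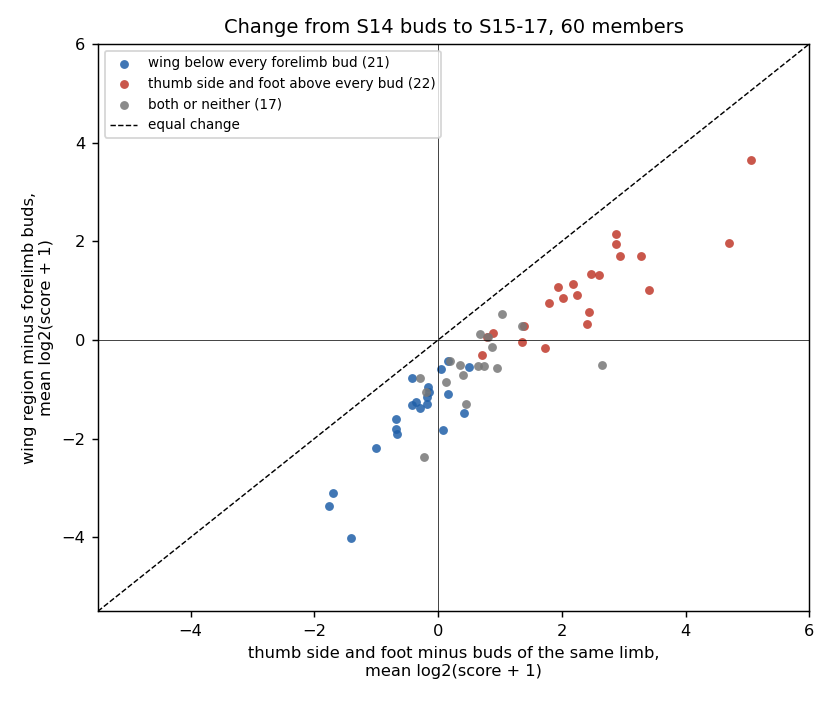
Log2(score + 1) change from the S14 buds to S15-17 in the wing region (y axis, against forelimb buds) plotted over the mean change of thumb side and foot (x axis, each against the buds of its own limb), 1 point per member. All 60 points lie below the line of equal change, largely because the rule chose members lower in the wing than in thumb side and foot. They run from members lower in the wing than in buds to members higher in both, but less so in the wing.

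The anterior part of the forelimb bud, whose edge becomes the thumb side, held many members at a higher score than the posterior part. The score was over 2-fold higher in the anterior part for 18 of the 60 members, against 1.75% of the 12720 components, and over 2-fold lower for 4, against 2.52%. The median log2 difference between anterior and posterior parts was 0.45 in the forelimb, where all 12720 components had 0.06. In the hindlimb bud, 5 members were over 2-fold higher in the anterior part, against 0.535%, and 2 were over 2-fold lower, against 0.715%. With a pseudocount of 5 the hindlimb count of 5 became 3 and the forelimb count of 4 became 2. The hindlimb median was 0.00. In the forelimb, the anterior part was highest of the 3 in 31 members (41.3% of the 12720 components) and scores descended from anterior through middle to posterior in 19 (15.2%). Of the 18 members over 2-fold higher in front, 4 had the low wing, 6 the high thumb side and foot and 8 were of neither kind. Of the same 18, 4 held fewer than 30 reads in the anterior forelimb bud. In the posterior forelimb bud, the lower side of the difference, most of the 18 held fewer than 30 reads. There comp9960_c0 held 13 reads and comp11472_c0 held 5, so the size of such differences is loosely set. Among members that averaged 50 or more over the anterior and posterior forelimb libraries, 13 of 46 were over 2-fold higher, against 1.38% of the 12720 components that met the same minimum, and over all 20429 kept components, low ones included, the share was 5.1%. The S14 libraries did not enter the choice of members.

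Component comp9036_c0 had the widest difference that both limbs shared. It scored 1096 in the anterior, 356 in the middle and 48 in the posterior forelimb bud, and 158, 460 and 67 in the hindlimb bud. The forelimb values thus declined from front to back, while in the hindlimb the middle part was highest. Component comp11472_c0 scored 136, 55 and 8 in the forelimb bud, again declining from front to back, and 151, 150 and 118 in the hindlimb bud, where the 3 parts were close. At S15-17 the same component scored 30 and 8 in the wing region, against 265 and 169 in thumb-side parts and 57 and 42 in the foot. Component comp9960_c0, which also differed between the limbs, scored 341, 194 and 21 in the forelimb bud and 7, 23 and 8 in the hindlimb bud. In the opposite direction, comp11841_c0 scored 13, 24 and 29 in the forelimb and 5, 25 and 16 in the hindlimb bud. Component comp5194_c1 scored 533, 548 and 1366 in the forelimb and 604, 992 and 1383 in the hindlimb bud, with the posterior part highest in both.

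In a fit with limma, a linear model that pools the spread over components, on the 6 buds with limb as a block, 0% of the 20429 kept components and thus no member were called between anterior and posterior parts at an adjusted p under 0.05. At an unadjusted p under 0.05 there were 14 members, 8 of them higher in the anterior part, and 3.88% of all kept components. The log2 difference was 2.85 for comp9036_c0 (SE 0.87, limma adjusted p = 0.947), 2.14 for comp11472_c0 (SE 0.87), -1.30 for comp11841_c0 (SE 0.47) and -1.27 for comp5194_c1 (SE 0.23), each with the same adjusted p. Robust variance shrinkage and limma voom on recovered reads each called 1 member, comp5194_c1, with limma adjusted p of 0.0473 and 0.0246. These settings called 0.0245% and 0.0783% of all kept components. The fit shares its anterior effect between limbs, so a difference that stands in the forelimb alone enters the residual spread. Whether the anterior difference itself differed between the limbs was not tested, as each limb has 1 library per position.

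**Figure D3:**
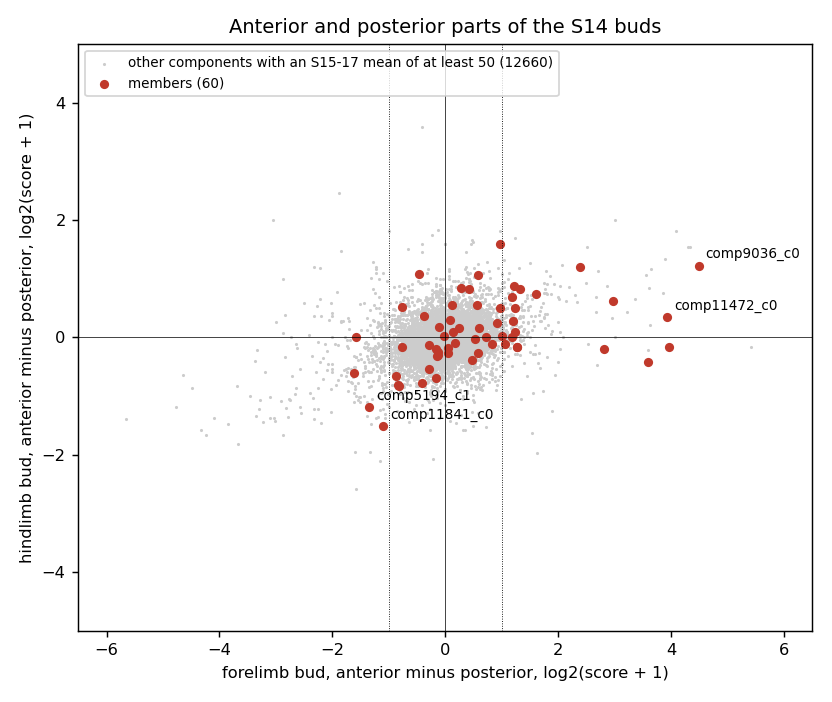
Anterior minus posterior difference in log2(score + 1), in the forelimb bud (x axis) and the hindlimb bud (y axis), for the 60 members (red) and the other components with an S15-17 mean of at least 50 (grey). Dotted lines mark 2-fold in the forelimb. Of the members, 18 lie right of the right-hand line and 4 left of the left-hand one.

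For the 60 components with the same ranking value turned round, those highest throughout the wing region relative to thumb side and foot, the anterior part of the forelimb bud was over 2-fold higher in 4 and over 2-fold lower in 20. Their median log2 difference was -0.47 in the forelimb and -0.13 in the hindlimb bud. The difference between the 2 lists was not tested.

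Between the limbs, the members as a list differed little in S14 buds. The median forelimb minus hindlimb log2 difference over the 60 members was 0.09 in the anterior, -0.32 in the middle and -0.18 in the posterior pair, and -0.20 for the mean of the pairs, where the 12720 components had -0.03. Without the middle pair the members' mean difference had a median of -0.02. Forelimb scores were lower in all 3 pairs for 13 members (21.2% of the 12720 components) and higher in all 3 for 6 (14.3%), close to the background.

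Component comp9960_c0 scored 341, 194 and 21 in anterior, middle and posterior forelimb buds against 7, 23 and 8 in hindlimb buds. The posterior forelimb value lay within the hindlimb range. Component comp8036_c0 scored 85, 48 and 43 in the forelimb and 20, 21 and 6 in the hindlimb, with no overlap. At S15-17 comp8036_c0 scored 77 and 64 in the wing region, 203 and 176 in thumb-side parts and 127 and 122 in the foot. In the other direction, comp15841_c0 scored 56, 75 and 40 in forelimb buds against 106, 108 and 138 in hindlimb buds, also without overlap. Component comp11472_c0 was lower in forelimb buds in each pair, least in the anterior one, and the limbs overlapped.

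In limma over the 3 pairs with bud position as a block, no member and 0% of kept components were called. An unadjusted p under 0.05 was found for 10 members, 2 higher and 8 lower in the forelimb, and for 10.7% of kept components. The log2 differences were 3.24 for comp9960_c0 (SE 0.83, limma adjusted p = 0.463), 1.95 for comp8036_c0 (SE 0.39, 0.463), -1.06 for comp15841_c0 (SE 0.30, 0.463) and -1.77 for comp11472_c0 (SE 0.71, 0.473). Robust shrinkage called 2 members, comp8036_c0 and comp7785_c0, and 0.734% of kept components. Voom on recovered reads called these with comp9960_c0 and comp7992_c0, and 1.03% of kept components. Components comp7785_c0 and comp7992_c0 are named for these calls, after their values were seen. Component comp7785_c0 scored 297, 175 and 157 in forelimb buds against 466, 321 and 395 in hindlimb buds, a log2 difference of -0.95 (SE 0.17). Component comp7992_c0 scored 330, 236 and 302 in forelimb buds against 479, 889 and 448 in hindlimb buds, a difference of -1.004 (SE 0.31).

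**Figure D4:**
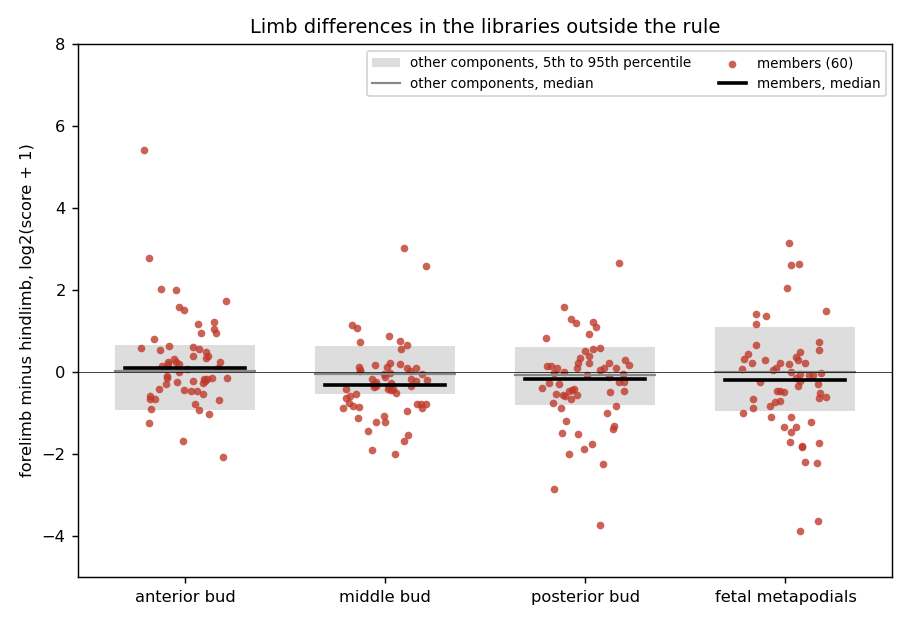
Forelimb minus hindlimb difference in log2(score + 1) for each member in the 3 S14 bud pairs and the fetal pair, none of which entered the selection. Black bars are the members' medians, at 0.09, -0.32, -0.18 and -0.19, and grey boxes span the 5th to 95th percentile of the other components.

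In the fetal skeleton, members stood apart between metacarpals and metatarsals in both directions. Of the 60, 14 were over 2-fold lower in metacarpals than in metatarsals, against 4.51% of the 12720 components, and 8 were over 2-fold higher, against 5.8%. Over 4-fold, 4 were lower (1.05%) and 4 higher (1.53%). The member lowest in metacarpals relative to metatarsals rested on 2 metacarpal reads. The members' median log2 difference was -0.19, against 0.00 for the 12720 components. With 1 library each these differences have no replicate check. The members as a list scored lower than the 12720 components, with a median of each one's mean score of 173 against 321. Single members scored far above that. The part of low counts in these shares was not tested. Of the 14 lower members, 9 averaged 50 or more over the 2 fetal libraries, as did 7 of the 8 higher ones. The share of all components at this minimum was not computed.

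The classes formed against the buds can be read in the fetal pair. Of the 21 members with the low wing, 9 were over 2-fold lower in metacarpals and 0 over 2-fold higher. The same class among the 12720 components held 3.43% lower and 6.89% higher. Of the 22 whose thumb side and foot stood above the buds, 2 were lower and 6 higher, where the same class of the 12720 components had 5.5% lower and 8.33% higher. Among members that averaged 50 or more over the fetal libraries, 5 of 14 with the low wing were over 2-fold lower and 0 higher, against 2.96% and 5.98% of that class of components. The 9 include comp1324_c0 with comp5402_c0, and comp5985_c0 with comp4934_c0, pairs that moved in parallel, as described below. The 5 include comp1324_c0 with comp5402_c0. If such a pair were pieces of 1 transcript, it would be counted more than once, which was not tested. The fetal libraries took no part in forming these classes, and the difference between the classes was not tested.

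Component comp6951_c0 scored 682 in metacarpals and 76 in metatarsals, a ratio of 9.02 (exact 95% counting interval 6.69 to 12.4). At S15-17 it had scored 233 and 325 in the wing region, 658 and 607 in thumb-side parts and 481 and 625 in the foot. The fetal forelimb value was thus the higher one for a member chosen as low in the wing. Component comp11841_c0 scored 461 in metacarpals and 74 in metatarsals, a ratio of 6.24 (4.58 to 8.68). Component comp4221_c0 scored 1098 and 5043, a ratio of 0.218 (0.202 to 0.235), and comp9374_c0 scored 22 and 106, a ratio of 0.206 (0.114 to 0.356). For comp4221_c0 the hindlimb interdigital tissue, at 1678, was already the highest of the S15-17 libraries, which otherwise held 205 to 597.

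Between fetal metapodials (metacarpals and metatarsals) and S14 buds, 2 periods outside the selection, most members changed, as did most components. In limma over the 8 libraries with limb as a covariate, 24 of the 60 members were higher in fetal metapodials, against 27.5% of the 20429 kept components, and 22 were lower, against 39.4%. The members' median log2 difference was 0.23 and that of all kept components -0.23. With libraries centred on their median the members' value flipped to -0.01 and that of all kept components was -0.47, so the members' median lay above that of all components under both scalings. Among the 21 members with a low wing, 17 were called lower and none higher. Among the 22 with a high thumb side and foot, 17 were called higher and none lower. The S14 libraries both formed these classes and enter this comparison, so the direction of these calls is not independent of the classes. The share called among all components of the same classes was not computed. Without the metacarpal library the members called were 15 higher and 18 lower, against 21.7% and 35.1% of kept components, so that both counts lay near the background.

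Component comp18349_c0 scored 313 in metacarpals and 111 in metatarsals, against 0, 4 and 2 in forelimb buds and 0, 2 and 0 in hindlimb buds. Its log2 difference was 6.64 (SE 0.73, limma adjusted p = 3.74e-05). Component comp11828_c0 scored 198 and 207, against 0 to 13 in the buds, a difference of 5.17 (SE 0.82, limma adjusted p = 0.000382). Both were near the limit of detection in the buds and well above it in fetal metapodials. At S15-17 their scores in wing interdigital tissue still rested on 1 read for comp18349_c0 and 3 for comp11828_c0. In these 2 the digit libraries at S15-17 exceeded the interdigital ones: comp18349_c0 scored 30 in wing digits and 2 in wing interdigital tissue, 184 and 6 in thumb-side parts and 86 and 50 in the foot, and comp11828_c0 scored 42 and 5, 156 and 23, and 91 and 37.

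Component comp1103_c0 scored 5 in metacarpals and 74 in metatarsals, where forelimb buds held 1306 to 2705 and hindlimb buds 2364 to 3405, a log2 difference of -6.77 (SE 0.54, limma adjusted p = 5.83e-06). Its forelimb value was again the lower one, as it had been in the wing region. Component comp4934_c0 scored 19 and 69, against 783, 1255 and 959 in forelimb and 599, 1585 and 874 in hindlimb buds, a difference of -4.68 (SE 0.44, limma adjusted p = 1.42e-05).

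**Figure D5:**
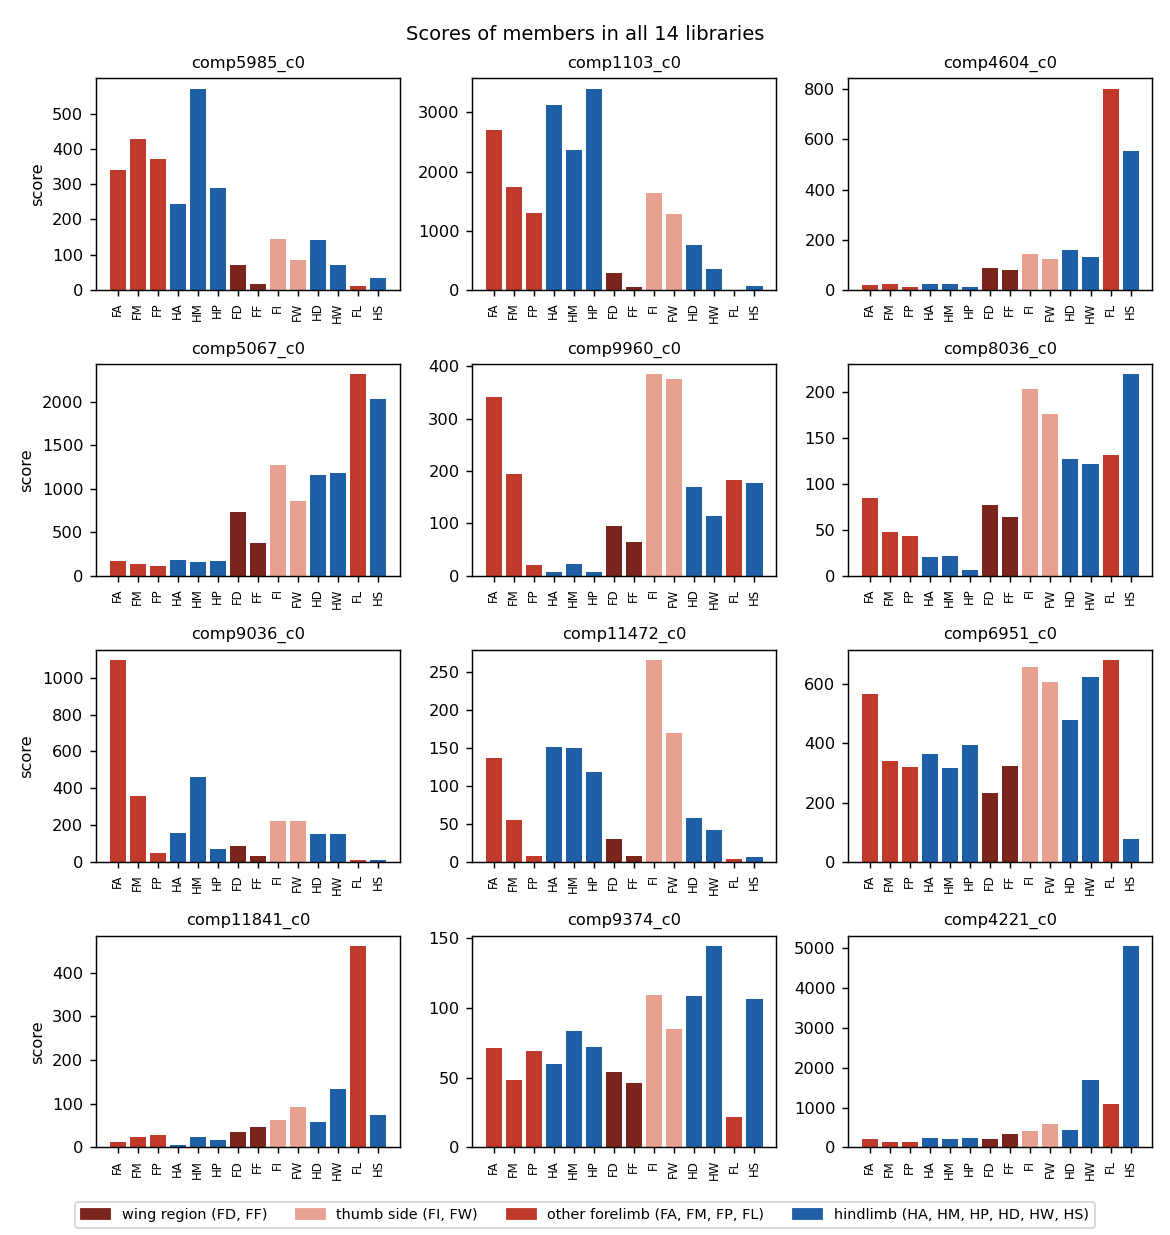
Scores of 12 members in the 14 libraries, in the order S14 buds, S15-17, fetal (linear axes from 0). Dark red bars are the wing region, which the rule requires to be the lowest of the S15-17 libraries within its tissue. Bud and fetal bars show the different histories, from highest in buds (comp5985_c0, comp1103_c0) to highest in fetal metapodials (comp4604_c0, comp5067_c0).

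Within S15-17, digits can also be set against the tissue between them. Digits II-V scored above the tissue between them for 39 members and below it for 19, with a median log2 difference of 0.26. Over the 12720 components this was 7005 above and 5637 below, with a median of 0.05. On the thumb side digit I was higher for 38 and lower for 21, with a median of 0.23, against 6948 and 5652 of the 12720 components and a median of 0.03. In the foot, digits were higher for 26 and lower for 34, with a median of -0.05, against 7352 and 5279 of the 12720 components and a median of 0.07. The thumb side scored above the foot in both tissues for 20 members and below it in both for 18. These counts were not made over all components. The median log2 difference was 0.07 between digit I and hindlimb digits and -0.13 between the interdigital tissues, against -0.04 and -0.01 over the 12720 components. Single members lay far apart in either direction, as comp11472_c0 and, between the interdigital tissues alone, comp4221_c0 show. These libraries chose the members, so no test applies.

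Some members moved in parallel over the 8 libraries that did not choose them. The pairs given here were picked from all pairs of members for a high r, so a high r is part of how they were chosen. Components comp1324_c0 and comp5402_c0, singled out after their values were seen, had a Pearson r of 0.992 over 8 libraries and 0.992 over the 6 buds alone in log2(score + 1). In forelimb buds comp1324_c0 scored 2279, 1673 and 2563 and comp5402_c0 scored 815, 698 and 1083. In hindlimb buds they scored 689, 2064 and 1118, and 270, 792 and 463, so the anterior hindlimb bud was lowest for both. The wing region held 851 and 423 of the first and 365 and 254 of the second, and their ratio stayed between 1.55 and 2.8 over all 14 libraries. Components comp5194_c1 and comp7364_c0, also singled out after their values were seen, had an r of 0.977 over 8 libraries and 0.985 over the buds. Their ratio was less steady, between 0.681 and 2.25. Components comp5985_c0 and comp4934_c0 had an r of 0.959 over the buds alone, and a closer one over the 8 libraries. Their ratio lay between 0.261 and 0.526. Libraries are shared by all components, and 2 pieces of 1 transcript would also run in parallel, so these r describe the pairs and carry no p.

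Of the 60 members, 5 have a second component with the same assembly number in the table, and none of these partners was itself a member. Component comp5194_c0, the partner of comp5194_c1, scored 698 and 684 in the wing region, 600 and 692 in thumb-side parts and 646 and 652 in the foot. Component comp8036_c1, the partner of comp8036_c0, scored 447 and 388 in the wing region, 444 and 393 in thumb-side parts and 519 and 527 in the foot. Component comp7992_c1, the partner of comp7992_c0, scored 33 and 48 in the wing region, 53 and 48 in thumb-side parts and 58 and 65 in the foot. Its wing digits were thus lower than the other digits. For comp5194_c0 the wing digits scored above the other digits. For comp8036_c1 the wing digits were level with digit I, at 447 against 444, and the wing region scored below the foot in both tissues. These partners are shown for members named above. The files do not say how components with 1 assembly number relate to genes.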

How the data were processed

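Messenger RNA of 14 autopod parts was sequenced, 1 library each. The deposited table holds a score per assembled component and library. Per the values, these scores are normalized read counts that the authors rounded to whole numbers. Tools listed in the submitters' processing notes are CASAVA 1.8, RSEM and edgeR, with no role attached. How components were assembled is not given in those sources.

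Testing kept components that averaged 10 or more over 14 libraries (20429, holding 98.95% of all scores). Differences of log2(score + 1) were tested with limma 3.58.1 (R 4.3.3, mean-variance trend), with Benjamini-Hochberg adjustment over all kept components, two-sided, called under 0.05. The tests ask whether a difference recurs over matched parts, and p-values measure the spread between parts, which may be technical. Reads were recovered as whole multiples of the smallest score step per library. At least 99.995% of nonzero scores matched a multiple after rounding, but large scores keep rounding error. Intervals are exact 95% and cover counting error only. Python 3.11.15 (numpy 2.4.6, pandas 2.3.3, scipy 1.17.1, matplotlib 3.10.9) did the rest. Members, lists and tests were chosen with earlier results of these data known. Voom on recovered reads, and the minimum of 50 over the anterior and posterior forelimb libraries or within a class over the fetal ones, were added after seeing the data. For each comparison, at most 2 members per direction with the widest differences are named, among members of 1 sign in all 3 limb pairs, of 1 sign in both limbs (anterior against posterior), with a fetal mean of 50 or more (metacarpals against metatarsals) or called (fetal against S14); exceptions are marked.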

Additional observations from a re-analysis of the deposited data

Results flagged for a closer look

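For comp8036_c0 the limb difference had opposite directions in 2 periods. It was higher in the forelimb in each of the 3 S14 bud pairs, and lower in fetal metacarpals, at 131, than in metatarsals, at 219, a log2 difference of -0.74. The difference between the periods was not tested, since the fetal pair has 1 library a limb.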

How the results depend on the processing

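The members' calls between limbs at S14, 0 in the main analysis, were 2 with robust shrinkage and 4 with voom, and 0 under the other settings, leaving out 1 bud pair included. Over all components that comparison called 0, with 1 after centring libraries on their median, 2 at pseudocount 5, 150 under robust shrinkage, 8 with no replicate block (bud position as the pairing left out) and 211 with voom. Anterior against posterior, robust shrinkage and voom called 1 member each and 5 and 16 of all components, and no filter called 721. In the fetal comparison no filter called 12764 components higher. Without 1 library, the members called higher ranged from 15 to 24, lowest without metacarpals, and those called lower from 18 to 22, while the shares of all kept components ran from 21.4% to 27.5% higher and from 33% to 39.4% lower. Centred libraries turned the sign: the members' median there became -0.012, beside -0.47 for all components; it was 0.43 with upper-quartile scaling and 0.07 to 0.37 without 1 library. A pseudocount of 5 left 2 members over 2-fold lower in the anterior forelimb bud and 3 over 2-fold higher in the anterior hindlimb bud. A fetal mean of at least 50 left 9 members over 2-fold lower and 7 over 2-fold higher in metacarpals. Other scalings, pseudocount 5 and leaving the set-aside components unreplaced kept 56 to 59 of the 60 members, and a minimum mean of 100 kept 40. The cause of these shifts was not tested.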
